A study of Mus musculus with 4 samples.

Results

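Transcript levels of 10 genes of the STAT5 feedback and target circuit were examined in mouse fetal liver cell lines transformed by p185 BCR-ABL1. The genes were Stat5a and Stat5b, the suppressor genes Cish, Socs1, Socs2 and Socs3, the kinase genes Pim1, Pim2 and Pim3, and the cytokine gene Osm. They were chosen by name, and all of their probes on the array were kept, which gave 13 probes for the 10 genes among 55681 probes and 20972 named genes. Socs2 had 3 probes, Stat5b had 2 and each of the other 8 genes had 1. All 13 probes were well above background, as called by the scanner software, in the channel of each genotype on all 4 arrays, and none was saturated, so every member entered the test.

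The cells were clones that had become immortal and transformed on their own after fetal liver was transduced with the p185 BCR-ABL1 transgene, and they grew asynchronously in RPMI 1640. The R/R lines were homozygous for the knock-in alleles Cdk4 R24C and Cdk6 R31C. The control was a pool labelled wild type (WT), and both genotypes carried BCR-ABL1 on a mixed C57BL/6J x CD-1 background. R/R clones 1, 2 and 3, labelled with Cy5, were each hybridised against the WT pool in Cy3. An R/R pool in Cy3 was hybridised against the WT pool in Cy5. The labels state 3 biological replicates per genotype and do not give the make-up of either pool, and the names of clones 1 and 2 share a number that clone 3 lacks. The labels name no blood lineage. Of 12 B-lineage marker genes, all 12 were well above background in both channels of every array, among them Pax5, Ebf1 and Vpreb1. Of 8 erythroid marker genes, 5 (Epor, Hba-a1, Klf1, Alas2 and Epb42) were not well above background in any channel. The globin genes Hbb-bt and Hbb-bh1 were well above it in every channel. Gata1, the remaining erythroid marker, was well above it in the WT channel on all 4 arrays and in no R/R channel. Of 7 myeloid marker genes 4, Csf3r, Itgam, Csf1r and Elane, were well above background in every channel.

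STAT5A and STAT5B are latent transcription factors that JAK kinases, or the BCR-ABL1 kinase itself, activate by tyrosine phosphorylation. Activated STAT5 dimers bind a spaced palindrome in DNA and switch on genes that include their own inhibitors, the CIS and SOCS proteins, and the constitutively active PIM serine/threonine kinases that favour survival and growth. BCR-ABL1-transformed lymphoid cells are known to depend on STAT5. Transcript levels of STAT5 itself do not report its phosphorylation, which was not measured.

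Promoter windows of the members are shown because 4 of the induced genes, Pim1, Socs1, Socs3 and Cish, differed most between the R/R clones, as given below. RefSeq windows on build GRCm38.p6, from 250 bases before to 50 after a transcript start, were matched for 8 of 10 members, and Socs2 and Osm were not matched. The motif searched was TTCNNNGAA, the spaced palindrome of STAT5, which reads the same on both strands. It was present in 8.3% of all 32851 promoter windows and in 2 of the 11 member windows, those of Cish and Socs3. Capitals mark the motif in the stretches that follow, written 5′ to 3′ along the gene's strand. The Socs3, Pim1 and Socs1 stretches are the 250 bases before the start, and the Cish stretch is the 30 bases around its motifs.
Socs3 (chr11:117969367-117969616, minus strand): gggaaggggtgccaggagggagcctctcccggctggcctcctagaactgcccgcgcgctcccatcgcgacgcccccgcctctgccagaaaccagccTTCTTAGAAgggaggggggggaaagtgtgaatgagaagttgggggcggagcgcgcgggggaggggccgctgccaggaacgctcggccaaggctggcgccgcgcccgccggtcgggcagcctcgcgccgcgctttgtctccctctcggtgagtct
Cish (chr9:107296654-107296683, plus strand): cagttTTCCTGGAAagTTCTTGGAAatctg
Pim1 (chr17:29490535-29490784, plus strand): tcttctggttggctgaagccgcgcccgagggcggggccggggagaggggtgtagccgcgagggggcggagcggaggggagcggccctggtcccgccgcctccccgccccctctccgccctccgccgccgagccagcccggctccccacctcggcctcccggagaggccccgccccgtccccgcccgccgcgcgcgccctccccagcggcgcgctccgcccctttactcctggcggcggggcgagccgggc
Socs1 (chr16:10785537-10785786, minus strand): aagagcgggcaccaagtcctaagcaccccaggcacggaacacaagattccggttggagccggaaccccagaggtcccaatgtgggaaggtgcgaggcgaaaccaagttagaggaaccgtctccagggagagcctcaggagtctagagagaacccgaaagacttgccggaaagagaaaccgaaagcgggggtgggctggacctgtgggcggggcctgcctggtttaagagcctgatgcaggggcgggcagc
The Socs3 motif began 154 bases before the start. Cish held 2 motifs, TTCCTGGAA beginning at the annotated start and TTCTTGGAA beginning 11 bases after it, and 0.457% of all windows held 2 or more. The windows of Pim1 and Socs1 held no match, which says only that these letters are not in this window.

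None of the 13 member probes passed the test between R/R and WT. Over all 26439 probes tested, 49 (0.185%) were called higher and 106 (0.401%) lower in R/R, 0.586% in either direction (limma, Benjamini-Hochberg adjusted p under 0.05, two-sided). At an unadjusted p under 0.05 the members' count was 5 of 13, where the share over all probes was 14.9%. Lower were 4 of them, the 3 Socs2 probes and Pim2, and higher was Pim3, with shares of 7.81% and 7.1% over all probes. The 3 Socs2 probes measure the same RNA, which raises this count and the count by sign that follows. By gene, with the brightest probe, 2 of the 10 members were lower and 1 was higher. By sign, 2 member probes were above 0 on all 4 arrays and 4 were below 0 on all 4, where the shares over all probes were 14.6% and 15.5%, and 30.1% for a single sign. All 4 arrays carried the same WT pool, so a shared sign is not evidence from independent controls. The median fitted log2 ratio of the members was 0.06, and that of all probes tested was -0.01. The smallest absolute log2 ratio called on the array was 0.66, larger than that of any member.

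**Figure D1:**
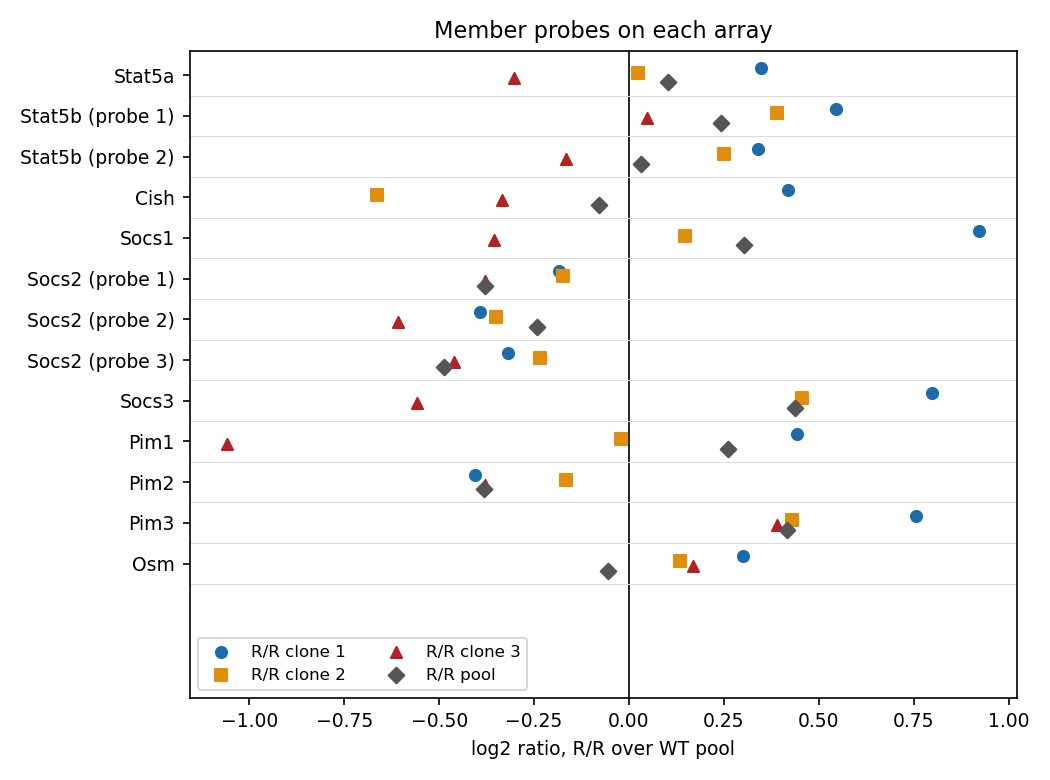
Log2 ratio of R/R over the WT pool (horizontal axis) for each of the 13 member probes on each of the 4 arrays, with 1 symbol per array; probes of a gene are numbered from the brightest. The Socs2 and Pim2 probes lie below 0 and Pim3 above 0 on all 4 arrays, whereas Pim1 runs from -1.06 in clone 3 to 0.44 in clone 1.

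Neither transcription factor gene was called, and the Stat5b probes differed in size. Stat5a had log2 ratios of 0.35 in clone 1, 0.02 in clone 2, -0.30 in clone 3 and 0.10 in the R/R pool. Clone 3 was the only array below 0, and the fitted value was 0.06 ± 0.14 (fitted SE; 3 R/R clones and the R/R pool, limma adjusted p = 0.860). The brighter Stat5b probe read 0.55, 0.39, 0.05 and 0.24 in the same order. It was above 0 on all 4 arrays, with a fitted value of 0.29 ± 0.12 (limma adjusted p = 0.353; 95% interval -0.01 to 0.58). The dimmer Stat5b probe read 0.34, 0.25, -0.17 and 0.03, with a fitted value of 0.09 ± 0.13, so the probes differed in the sign of clone 3. In both genes, and by each probe, clone 1 was highest and clone 3 lowest of the clones.

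Among the suppressor genes, Socs2 lay below the WT pool on every array by every probe. SOCS2 is an SH2-domain ubiquitin ligase adaptor best known for restraining growth hormone signalling. The brightest Socs2 probe, which was spotted 10 times per array, read -0.18 in clone 1, -0.17 in clone 2, -0.38 in clone 3 and -0.38 in the R/R pool. Its replicate spots had an SD of 0.05, 0.08, 0.11 and 0.07 in that order, and this is the technical spread within an array, not a spread between R/R samples. In clone 3, 6 of the 10 spots were used because the other 4 carried outlier flags, and with these kept the clone 3 value was -0.39. The normalised intensity of this probe was 1832 to 2090 in the R/R channels and 2359 to 2550 in the WT channels. The WT channels held the same pool on each array, so their range holds no spread between WT samples.

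The other Socs2 probes gave the same direction. One read -0.39, -0.35, -0.61 and -0.24 (clones 1, 2 and 3, then the pool) and the other -0.32, -0.24, -0.46 and -0.49. The fitted values of the 3 probes were -0.31 ± 0.09, -0.35 ± 0.10 and -0.41 ± 0.09, which is 1.24-, 1.27- and 1.33-fold higher in WT. None passed (limma adjusted p of 0.222, 0.203 and 0.151). The probes measure the same RNA and are not independent replicates. With the R/R pool counted as another replicate and no dye term, 2 of the 3 passed (limma adjusted p of 0.042 and 0.041). In that setting 798 of all 26439 probes were called lower, against 106 in the fit reported. The labels do not say whether the pool is independent of the clones.

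Socs1 and Socs3 spanned both signs. SOCS1 binds and inhibits JAK kinases, and SOCS3 acts on JAKs at receptors of the gp130 and G-CSF type. Socs1 read 0.92 in clone 1, 0.15 in clone 2, -0.36 in clone 3 and 0.30 in the pool. Its normalised intensity in the R/R channel was 1324, 758, 491 and 927, while the WT channel of the same arrays stayed between 629 and 751. Clone 1 and the pool lay above the WT range, clone 2 just above it and clone 3 below it.

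Socs3 read 0.80, 0.46, -0.56 and 0.44 in the same order. The R/R channel stood at 997, 777, 318 and 730, and the WT channel between 468 and 573. Only clone 3 was below 0 for each of these genes. The fitted values, 0.27 ± 0.23 for Socs1 and 0.33 ± 0.25 for Socs3 (limma adjusted p of 0.622 and 0.575), carried larger SEs than the median of 0.10 over all probes. Without clone 1 they were 0.099 and 0.19, and without clone 3 they were 0.42 and 0.53.

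Cish, which encodes an SH2-domain inhibitor that is among the most direct transcriptional targets of STAT5, followed another order. It read 0.42 in clone 1, -0.66 in clone 2, -0.33 in clone 3 and -0.08 in the pool. Clone 1 alone was above the WT pool, and the lowest clone was clone 2. The R/R channel ranged from 1001 to 1998 around a WT channel of 1447 to 1586. The fitted value was -0.14 ± 0.21 (limma adjusted p = 0.788; 95% interval -0.65 to 0.37). It was -0.29 without clone 1 and -0.018 without clone 2.

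**Figure D2:**
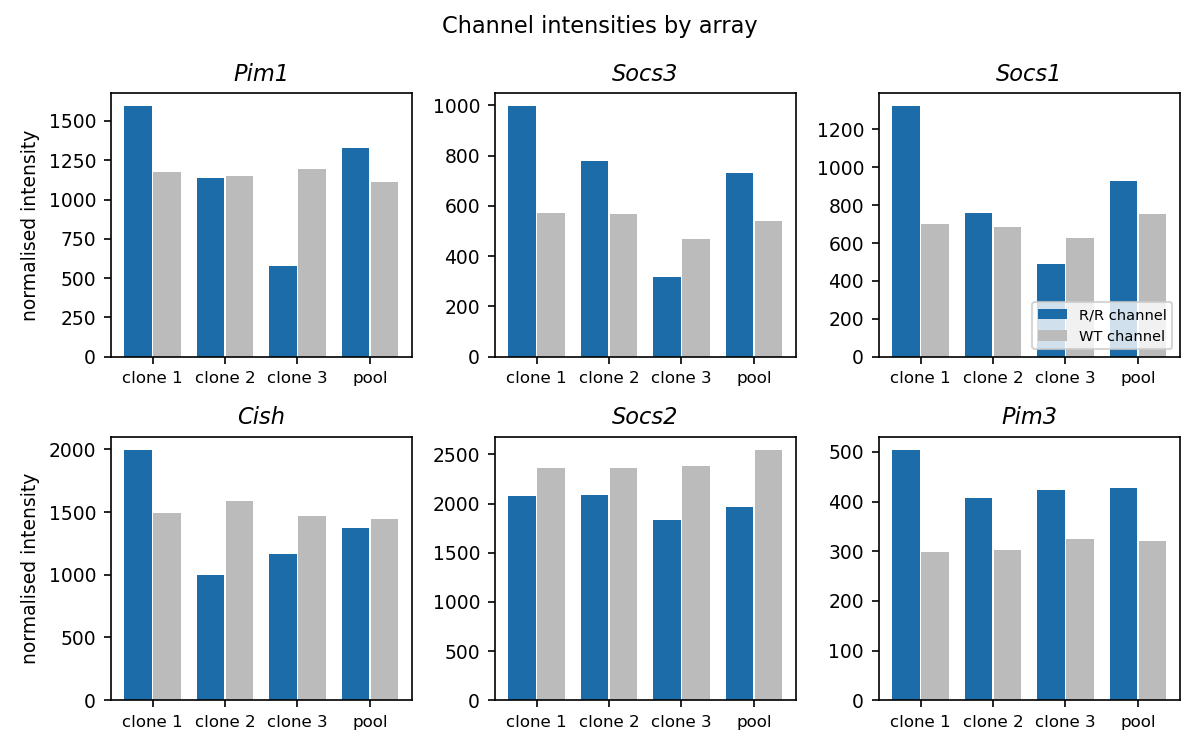
Normalised intensity (vertical axis, linear, from 0) of the R/R channel and the WT channel on each of the 4 arrays, for Pim1, Socs3, Socs1, Cish, the brightest Socs2 probe and Pim3. The R/R bars of Pim1 fall from 1595 in clone 1 to 574 in clone 3 beside WT bars of 1109 to 1195, whereas the Socs2 R/R bars are below and the Pim3 R/R bars above the WT bar on each array.

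The fitted values of Pim1, Pim2 and Pim3 were near, below and above 0 in that order. PIM kinases are active as made and are thought to be controlled largely through their amount. Pim1 read 0.44 in clone 1, -0.02 in clone 2, -1.06 in clone 3 and 0.26 in the pool. In intensity the R/R channel stood at 1595, 1135, 574 and 1329, and the WT channel at 1173, 1152, 1195 and 1109. Clone 3 was therefore the one R/R sample well below the WT range, with clone 1 and the pool above it. The fitted value was 0.02 ± 0.27 (limma adjusted p = 0.973). The 95% interval, -0.65 to 0.70, spans decreases and increases of over 1.5-fold.

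Pim2 was lower than the WT pool on all 4 arrays, at -0.41, -0.17, -0.38 and -0.38 in clones 1, 2 and 3 and the pool. The R/R channel ranged from 156 to 187 and the WT channel from 205 to 243. The fitted value was -0.35 ± 0.10, 1.27-fold higher in WT (limma adjusted p = 0.194; 95% interval -0.59 to -0.11). These are dim spots, and the constant of 50 added in background correction draws the ratio of dim spots towards 0. By the scanner software's own ratios Pim2 stood at -0.50 (limma adjusted p = 0.341).

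Pim3 was higher than the WT pool on all 4 arrays, at 0.76, 0.43, 0.39 and 0.42. The R/R channel ranged from 407 to 505 and the WT channel from 299 to 324. The fitted value of 0.47 ± 0.11 was the largest of the members in absolute size, 1.39-fold higher in R/R (limma adjusted p = 0.155; 95% interval 0.20 to 0.74). With no dye term it passed, at 0.50 (limma adjusted p = 0.025). That setting called 632 of all 26439 probes higher, against 49 in the fit reported. The differences between the PIM genes were not tested.

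Osm, the gene of the gp130 cytokine oncostatin M and a STAT5-induced gene in haematopoietic cells, was dim. It read 0.30, 0.13 and 0.17 in the clones and -0.06 in the R/R pool. The R/R channel (163 to 171) overlapped the WT channel (139 to 171), and the fitted value was 0.07 ± 0.09 (limma adjusted p = 0.740). On the receptor side, the single probes of Osmr and of Il6st, which encodes gp130, were not well above background in any channel.

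**Figure D3:**
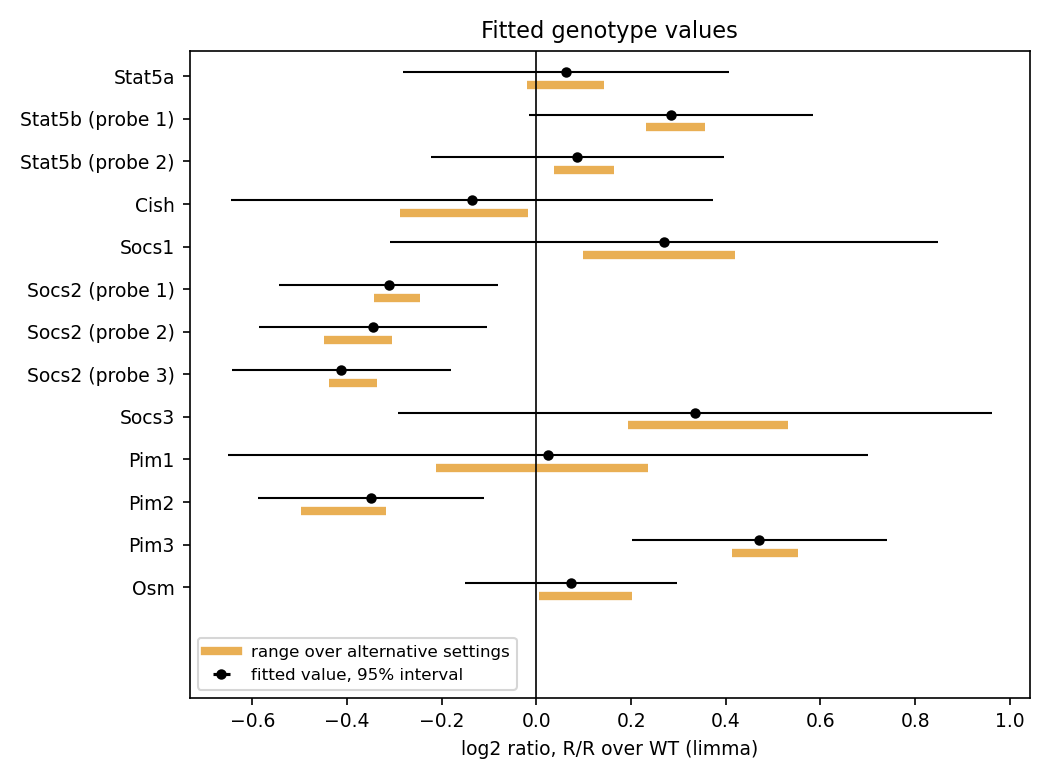
Fitted log2 ratio of R/R over WT (horizontal axis) with its 95% interval (black, limma, 3 clones and 1 pool) for each member probe, and the range of the fitted value over the alternative settings (orange). The intervals of the Socs2 probes, Pim2 and Pim3 leave out 0, while that of Pim1 runs from -0.65 to 0.70 and its orange bar from -0.21 to 0.24.

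Among the members, Pim1, Socs3, Socs1 and Cish had the largest spread between the R/R clones. Of the 13 member probes these 4 had an SD over the 3 clones above 0.5 on the log2 scale, and 4.92% of all probes tested had one. These SDs were 0.77 for Pim1, 0.71 for Socs3, 0.64 for Socs1 and 0.55 for Cish, at the 98.3, 98.0, 97.4 and 96.3 percentile of the probes tested. The remaining members lay between the 19.5 percentile (Osm, SD 0.09) and the 84.9 percentile (Stat5a, SD 0.33). Each clone was measured on a single array, so these differences between clones have no replicate check and were not tested. The cut of 0.5 was not part of the plan.

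**Figure D4:**
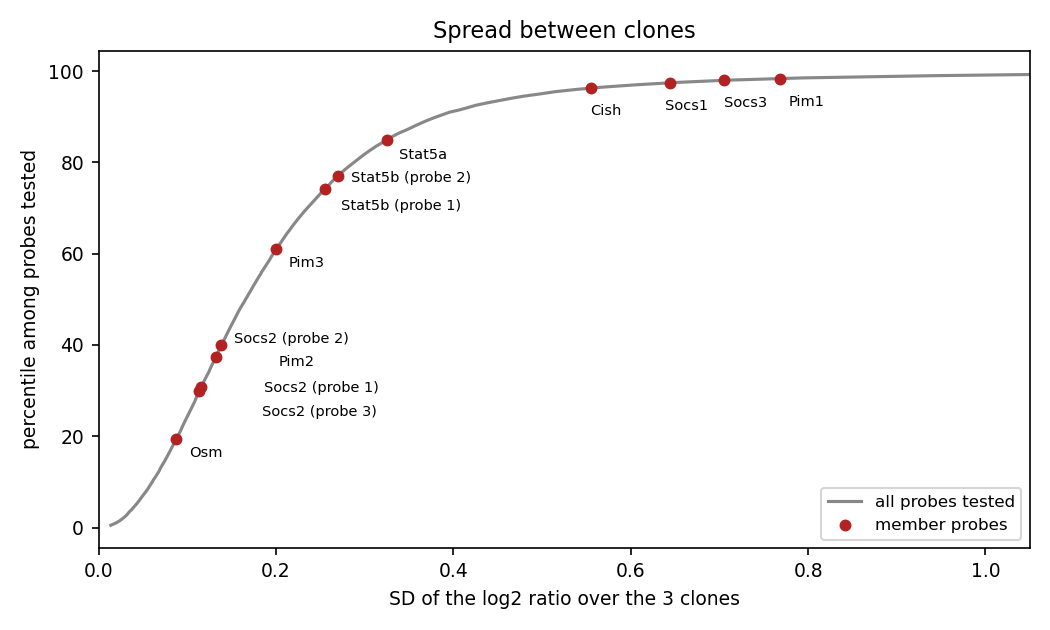
SD of the log2 ratio over the 3 R/R clones (horizontal axis) against its percentile among the 26439 probes tested (vertical axis); the grey line is all probes and the red points are the 13 member probes. Cish, Socs1, Socs3 and Pim1 lie above the 96 percentile, and Socs2, Pim2 and Osm lie at or below the 40.0 percentile.

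The ordering of the clones was shared by several members. The log2 ratio fell from clone 1 through clone 2 to clone 3 for 7 member probes of 6 genes, Stat5a, Stat5b, Socs1, Socs3, Pim1 and Pim3, and 14.8% of all probes tested had that order. Clone 1 exceeded clone 3 by 2.83-fold for Pim1, 2.56-fold for Socs3 and 2.43-fold for Socs1. A log2 gap above 1 was present in 3 of 13 member probes and in 0.972% of all probes tested. For Stat5a the log2 gap was 0.65 and for the Stat5b probes 0.50 and 0.51, and for Pim3 it was 0.37. Clone 3 was the lowest clone for 10 of 13 member probes, where 39.3% of all probes had it lowest, and clone 1 the highest for 9, with 28.5% over all probes. The Socs2 probes and the Stat5b probes enter these counts separately, although probes of a gene measure the same RNA. Neither this order nor the cut of 1 was planned. The counts of spread, gap and order also reuse the same few probes, Pim1, Socs3 and Socs1 among them. They describe the members, and the shares beside them are no test. Cish, Socs2, Pim2 and Osm did not have the order. Their gaps between clones 1 and 3 were 0.75 for Cish and -0.03 to 0.22 for the others.

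Several array-wide and marker values also differed between the clones. The median log2 ratio of all probes tested was between -0.02 and 0.01 on each array, and that of the 13 member probes was 0.35, 0.02, -0.36 and 0.03 in clones 1, 2 and 3 and the pool. In the R/R channel the scanner software put above background 46.4% of spots in clone 1, 53.4% in clone 2 and 42.8% in clone 3. The summed intensity of the 8 erythroid markers was 3818, 3070 and 2295 in clones 1, 2 and 3 and 9145 to 10188 in the WT channels, with 5 of the 8 not well above background anywhere. Of the 3 erythroid markers tested, Hbb-bh1 and Hbb-bt, which encode globin chains, were called lower in R/R. The summed intensity of the 12 B-lineage markers was 205611, 157232 and 216340 in the clones and 150615 to 171249 in the WT channels. For 7 myeloid markers it was 68729, 108872 and 51338, and 84593 to 97234 in the WT channels, with Mpo not well above background in any channel. These linear sums mostly reflect the brightest genes, Hbb-bt, Vpreb1 with Vpreb3, and Csf3r with Itgam. By gene, 2, 9 and 4 of the 12 B-lineage markers had a log2 ratio below 0 in clones 1, 2 and 3. For the 5 myeloid markers tested the counts were 3, 2 and 4. The part of the array-wide and marker values in the clone pattern of the members was not tested. In RNA from whole cultures, fewer expressing cells and less RNA per cell cannot be told apart.

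Genes upstream of STAT5 gave no call. Of 9 JAK and other STAT genes 8 were tested and none passed (limma), with a median of -0.17. At an unadjusted p under 0.05 the only one was Jak1, the kinase shared by many cytokine receptors. Jak1 read -0.41, -0.50 and -0.52 in the clones and -0.31 in the pool, and its fitted value was -0.39 ± 0.09 (limma adjusted p = 0.148). Jak2 stood at -0.20 ± 0.10 and Jak3 at -0.18 ± 0.09.

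Of 17 cytokine receptor genes 12 were tested and none passed (limma; 2 at an unadjusted p under 0.05), with a median of -0.07. Lifr, the leukaemia inhibitory factor receptor, had the smallest p. Its brightest probe read -1.14, -0.57, -1.47 and -0.79 in clones 1, 2 and 3 and the pool, below 0 on every array, and its fitted value was -0.92 ± 0.18 (limma adjusted p = 0.115). Without clone 2 it passed, at -1.05 (limma adjusted p = 0.040). Of the other Lifr probes one stood at -0.50 ± 0.11, with R/R well above background on only 1 of 4 arrays and so limited by the background, and one at 0.09 ± 0.10. Il7r, the interleukin-7 receptor chain that feeds STAT5 in B-cell precursors, read 0.83, 0.03, -0.07 and 0.70, and its fitted value was 0.48 ± 0.19 (limma adjusted p = 0.316). Il3ra, the interleukin-3 receptor chain, ran from -0.59 in clone 2 to 1.89 in clone 3, with a fitted value of 0.62 ± 0.43.

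Other brakes on the pathway also gave no call (limma). Of 17 such genes 15 were tested, 10 lay below 0, the median was -0.12 and 3 had an unadjusted p under 0.05. These were Pias2 (-0.44 ± 0.09), an E3 SUMO ligase of the PIAS family; Socs7 (-0.38 ± 0.09); and the docking protein gene Dok2 (-0.97 ± 0.28; limma adjusted p of 0.136, 0.150 and 0.208). Socs7 was even over the arrays, at -0.44, -0.39 and -0.44 in the clones and -0.34 in the pool. Dok2 was not, at -0.12 in clone 1 against -1.38 and -1.54 in clones 2 and 3, and without clone 1 it passed, at -1.20 (limma adjusted p = 0.040).

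Among 18 other known STAT5 target genes 17 were tested, with 8 above and 9 below 0 and a median of -0.05. At an unadjusted p under 0.05, 4 were higher and 3 lower. The growth factor gene Igf1 was the only one called (limma), and its call rests on a WT signal near background. Its brightest probe read 0.71, 0.72, 0.63 and 0.81 in clones 1, 2 and 3 and the pool, with a fitted value of 0.75 ± 0.09 (limma adjusted p = 0.043). In the WT channel this probe cleared background on just 2 of the 4 arrays, so it entered the test through R/R, where it was higher, and the size of the difference is not settled. With the scanner software's ratios it was 2.58 and with offset 16 it was 1.18. The strict filter, which asks for both genotypes on all 4 arrays, left it out. It lost its call without clone 1 (limma adjusted p = 0.133), without clone 2 (0.054) and with median centring (0.209). Another Igf1 probe, with the WT channel above background on 3 arrays, gave 0.76 ± 0.10 (limma adjusted p = 0.049). It lost its call in the same settings (0.144, 0.061 and 0.27), with the scanner ratios (2.04; 0.057), with scaling (0.0501), on the clones alone (0.070) and with clones 1 and 2 averaged (0.056). In both remaining Igf1 probes the WT channel was not well above background on any array, and no fold is given. The next genes by p, outside the rule for names, were Ccnd1, Ccnd3 and Gadd45g. The cyclin genes Ccnd1 and Ccnd3 stood at -0.91 ± 0.24 and 0.54 ± 0.15, and the stress-response gene Gadd45g at 0.72 ± 0.20 (limma adjusted p of 0.189, 0.189 and 0.192). Ccnd1 read -0.07 in clone 1 against -1.31 and -1.15 in clones 2 and 3. It passed with clones 1 and 2 averaged (limma adjusted p = 0.047), a setting that hides this difference. Cdkn1a, a CDK inhibitor gene at 0.55 ± 0.36, read 1.14, 1.03 and -0.72 in clones 1, 2 and 3. It passed without clone 3, the clone of opposite sign, at 0.85 (limma adjusted p = 0.031). Gadd45g rose over clones 1, 2 and 3, at 0.05, 0.79 and 1.04. Il2ra fell, at 0.82, 0.16 and -2.33, with R/R well above background on 3 of 4 arrays. The median log2 ratio of the 17 genes was 0.08, -0.001 and -0.003 in clones 1, 2 and 3. In the same order 5, 9 and 9 of them were below 0.

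Neither the adaptors that couple BCR-ABL1 to signalling nor the PIM substrates gave a call (limma). Of 13 adaptor and partner genes 10 were tested (median -0.10; 4 at an unadjusted p under 0.05). The RAS exchange factor gene Sos2 stood at -0.54 ± 0.09, the adaptor gene Crk at -0.41 ± 0.09 and the PI3-kinase subunit gene Pik3r1 at 0.38 ± 0.09 (limma adjusted p of 0.102, 0.140 and 0.159). A second Crk probe gave 0.06 ± 0.13. Of 13 PIM substrate and partner genes 12 were tested (median 0.03; 4 at an unadjusted p under 0.05). Eif4ebp1, whose product restrains cap-dependent translation, stood at -0.57 ± 0.13, Eif4b at -0.40 ± 0.09 and the CDK inhibitor gene Cdkn1b at -0.54 ± 0.13 (limma adjusted p of 0.148, 0.156 and 0.164). The other Eif4b probes gave -0.30 ± 0.09 and 0.00 ± 0.14.

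**Figure D5:**
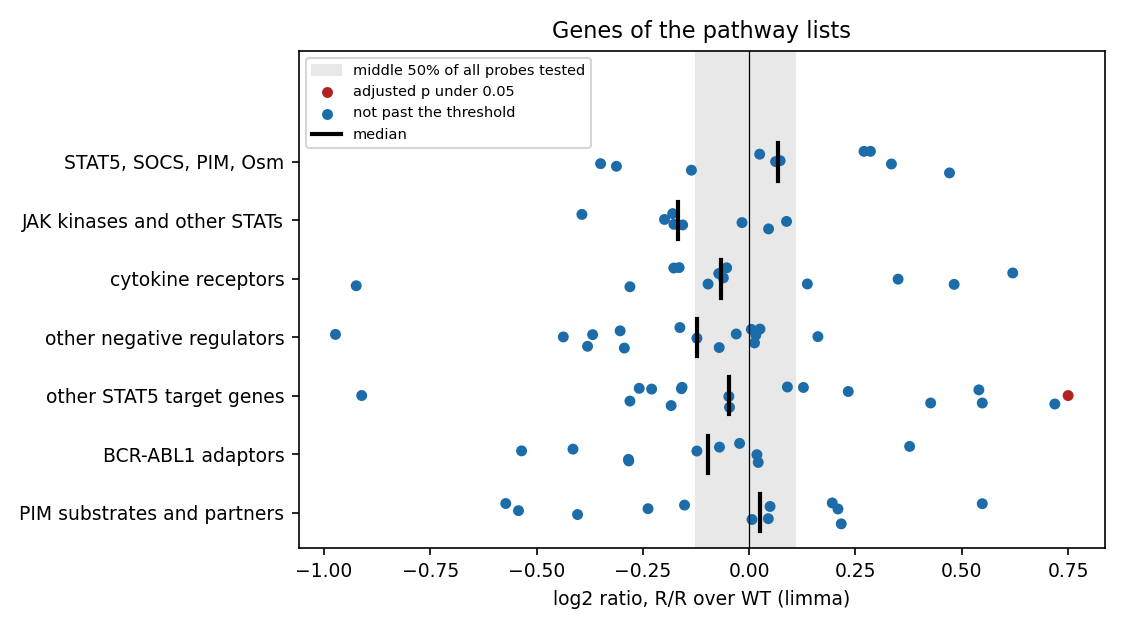
Fitted log2 ratio of R/R over WT (horizontal axis), 1 point per gene by its brightest tested probe, for the members and 6 lists of pathway genes; black bars are list medians and the grey band is the middle 50% of all probes tested. Igf1, at 0.75, is the only point past the threshold (red).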

How the data were processed

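RNA from 3 R/R clones and 1 R/R pool was compared with a WT pool on 4 two-channel Agilent arrays of 1 slide. Per the labels, 100 ng of RNA with integrity numbers of 9.8 to 10.0 was labelled. Per the file headers, each intensity is the median over a spot's pixels, or over its surrounding background, before any correction. Agilent Feature Extraction 11.5.1.1 made them on a design annotated to mm9. The deposited log10 column, Cy5 over Cy3 after that software's own dye normalisation per the file headers, was used as an alternative. A table of log2 values deposited for the whole series was not used, because its row numbers match no probe.

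Background was corrected by normexp (offset 50) and each array normalised by loess in limma 3.58.1 under R 4.3.3, with control spots at weight 0, flagged spots left out and spots of a probe averaged. The pool array, whose dyes were swapped, had its ratio inverted so that all 4 express R/R relative to WT. Channel intensities were also quantile-normalised on the mean intensity between arrays. A probe was tested if either genotype's signal was well above background on at least 3 of 4 arrays (26439 of 55681). RefSeq accessions gave 27656 probes a symbol. Each probe was fitted with a genotype and a dye term, so the fitted value is midway between the pool and the mean clone. The spread comes from the clones (2 residual degrees of freedom), and the single WT pool adds none of its own. Dye and the difference between pool and clones cannot be told apart. The number of arrays limits the precision. Each p is two-sided and was adjusted over all probes tested by Benjamini-Hochberg. The fit was also run on simulated data with known changes. High recovery was required there only for changes larger than that of any member. That run therefore does not show whether changes of the members' size would be called.

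The members, gene lists and tests were chosen with earlier results of these data known. Named genes were the members, called genes of each list or otherwise its 3 with the smallest p, and Osmr, Il6st, Lifr, Il7r and Jak2. Ccnd1, Ccnd3, Gadd45g, Cdkn1a and Il2ra were named after their values were seen. The comparisons of clone order, clone gap and clone SD, with their cuts, were not in the plan. The brightest probe stood for a gene in list counts. Alternatives were the scanner ratios, offset 16, median centring, scaling, no or a stricter filter, the brightest probe per gene, a fit of the clones alone, a fit without the dye term, leaving out a clone, averaging clones 1 and 2, a threshold of 0.10 and, chosen after the data were seen, flagged spots kept. Some marker genes are not reported here.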

Additional observations from a re-analysis of the deposited data

How the results depend on the processing

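No member probe was called under 14 of the 15 alternatives. With no dye term, 1 member probe was called higher (Pim3) and 2 lower (Socs2). Of 192 pairs of member probe and alternative, 183 kept both direction and side of the threshold, 3 passed it and 6 turned their sign. Changing the filter, the probe chosen per gene or the threshold leaves a probe's fitted value as it is. Those pairs could not turn sign, and keeping flagged spots moved only the brightest Socs2 probe, so the count overstates stability of direction. Pim1 turned to -0.21 on the clones alone, -0.094 with no dye term, -0.14 without clone 1, -0.023 without clone 2 and -0.081 with clones 1 and 2 averaged, and stood at 0.24 without clone 3. Stat5a turned to -0.019 without clone 1 and stood at 0.14 without clone 3. Leaving out a clone changes the spread as well as the mean, and otherwise the cause was not tested.

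Over all probes, the scanner ratios gave 8 higher and 49 lower, median centring 3 and 29, the strict filter 31 and 57, no dye term 632 and 798, and the threshold of 0.10 gave 130 and 248. With the brightest probe per gene 30 were higher. Leaving out a clone gave 16 (without clone 1) to 117 (without clone 3) higher and 59 to 229 lower. Of the pathway lists' probes, 2 were called higher in the fit reported. That count was 1 with the scanner ratios, with scaling, with the brightest probe, on the clones alone and with clones 1 and 2 averaged. It was 0 with median centring and the strict filter, 6 with no dye term, and 0 to 3 with a clone left out. Pathway probes called lower numbered 11 with no dye term, 1 with clones 1 and 2 averaged, and 0 to 1 with a clone left out. No paired analysis was possible because the clone numbers occur in 1 group only and the WT pool carries none. Signal over background limits Pim2, Osm and Igf1. With offset 16 the brightest Igf1 probe moved from 0.75 to 1.18, Pim2 from -0.35 to -0.42 and Pim3 from 0.47 to 0.53. Osm moved little, from 0.07 to 0.10.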
